A study of Mus musculus with 4 samples.

Results

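Ferritin and the proteins that move iron were followed as transcripts in CD11b+ microglia, the resident macrophages of the brain, which had been purified by magnetic sorting (MACS). The 10 genes were chosen by symbol, namely Fth1, Ftl1, Ncoa4, Tfrc, Steap3, Slc11a2, Slc11a1, Slc40a1, Cp and Hmox1. All 10 of 10 were found among the 49993 genes of the count tables, and all 10 passed the filter on low counts, through which 21439 genes were tested. They were proposed with AD and AD/KO results of these data already known, so that their differences between the groups are described and not tested.

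All 4 libraries came from 10-month-old mice that carried APP/PS1, transgenes that cause amyloid to build up in the brain. In the AD group (n = 2 libraries) the asrij gene was intact (APP/PS1+ asrij+/+), and in the AD/KO group (n = 2 libraries) it was deleted constitutively (APP/PS1+ asrij-/-), in all cells and not in microglia alone. The promoter of the transgenes, the number of animals behind each library and whether animals were pooled are not given in the sources used here. P-values therefore measure the spread between these libraries, which may be technical in part.

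Iron enters most cells bound to transferrin, which Tfrc carries into endosomes, where Steap3 reduces it and Slc11a2 passes it to the cytosol. The cell stores it inside ferritin, a shell of heavy chains (Fth1), which oxidise iron, and light chains (Ftl1), which help it to form a mineral core, and exports it through ferroportin (Slc40a1). Microglia also take up iron with the debris and heme that they engulf, and in brains with amyloid, microglia around plaques are known to hold iron and ferritin.

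Several of these transcripts are known to be regulated through a hairpin in the RNA, the iron-responsive element. The iron sensors Aco1 and Ireb2 bind it when iron is scarce. A hairpin in the 5′ UTR then blocks translation, and hairpins in the 3′ UTR protect the transcript from decay, so that RNA counts see the second effect but not the first. The hairpins found in the 10 genes are shown because they sort the genes into these modes. In the mouse transcripts of GENCODE M21 (GRCm38), Fth1 held 1 in its 5′ UTR (chr19:9982732-9982761, plus strand), Ftl1 held 1 in its 5′ UTR (chr7:45459778-45459807, minus strand) and Slc40a1 held 1 in its 5′ UTR (chr1:45925464-45925493, minus strand). In Tfrc the search described below found 4, all in its 3′ UTR on the plus strand, from chr16:32631219-32631248 to chr16:32631710-32631739. The first and the last are shown. Capitals mark the 6 bases of the loop, and 12 bases on either side are in lower case.
Fth1: ttcctgcttcaaCAGTGCttgaacggaacc
Ftl1: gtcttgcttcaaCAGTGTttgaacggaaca
Slc40a1: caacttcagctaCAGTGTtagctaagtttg
Tfrc first: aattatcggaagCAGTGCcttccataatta
Tfrc last: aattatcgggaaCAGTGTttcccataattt
Slc11a2: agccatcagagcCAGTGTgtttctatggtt

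The search used CNNNNNCAGTGN on the transcript strand only, with the 5 bases after the 6-base loop paired to the 5 before it (G to T pairs allowed) and at least 3 of the 5 positions beyond the leading C paired as well. By this rule 95 of 21877 protein-coding genes (0.434%) held a match, with 10 genes matching in a 5′ UTR (0.0457%) and 36 in a 3′ UTR (0.165%). The Slc11a2 hairpin (chr15:100395152-100395181, minus strand, 3′ UTR) appeared only under a separate rule, which required 1 unpaired base after the loop. That separate rule was met by 239 genes (1.09%), and of the genes followed here only by Slc11a2. The Slc11a2 hairpin lies in only 1 coding transcript of that gene. The Ftl1, Slc40a1 and Tfrc hairpins also lie in 1 coding transcript of their genes, and the Fth1 hairpin in 4. The Fth1 and Ftl1 stretches were identical at 26 of 30 bases, and those of Fth1 and the first Tfrc hairpin at 10 of 30. No match in Ncoa4, Steap3, Slc11a1, Cp or Hmox1 says only that these letters and pairs were not found there. In Tfrc, too, a hairpin that departs from these rules would not have been counted.

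The libraries held 13102622 to 19810076 counts, so that even Steap3, the least abundant of the 10 genes, rested on 57 to 85 counts a library. Levels are given in CPM (counts per 1000000 counts of the library, whose size is corrected for composition by TMM). Ociad1, the mouse name of asrij, had 691 and 1032 counts in AD and 746 and 592 in AD/KO. Its log2 fold change was −0.68 (SE 0.29), so the transcript was lower but not lost, and the group names below follow the labels only. Microglial marker genes (12 of 12 detected in every library) summed to 18551 and 12724 CPM in AD and 18786 and 5418 CPM in AD/KO. AD/KO replicate 2 thus stood apart with the lowest microglial signal, and it also had the highest sums of neuron (3016 CPM), astrocyte (13754 CPM) and oligodendrocyte (8566 CPM) markers. Xist, the RNA that silences an X chromosome in females, had 1391 counts in AD replicate 2 and 3 to 15 in the others. AD replicate 2 thus held RNA of female cells, unlike the rest. Since pooling is not given, these counts do not tell a female library from a pool of both sexes. AD replicate 2 also had the highest neutrophil sum, 4488 CPM against 322 to 517 CPM in the other libraries. In bulk RNA, fewer cells of a type and less RNA per cell cannot be told apart.

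No gene passed the genome-wide test. Of 21439 genes, 0 (0%) reached an adjusted p of 0.05 in the quasi-likelihood test of edgeR (Benjamini-Hochberg), whereas 1072 had an unadjusted p under 0.05 and DESeq2 called 86. Among the 10 iron genes, 3 had a fitted fold change above 0 and 7 below 0, where 47.2% of all genes lay above 0 and 52.8% below. Their median log2 fold change was −0.33, against −0.05 over all genes tested. Both AD/KO libraries lay above both AD libraries in 2 of the 10 (Fth1 and Slc11a2), against 20.3% of all genes, and below them in 4 (Ftl1, Ncoa4, Cp and Hmox1), against 21.7%. The groups thus did not overlap in 6 of the 10, against 42.0% of all genes. Nothing is read from these shares, since the genes were proposed from the same contrast.

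**Figure D1:**
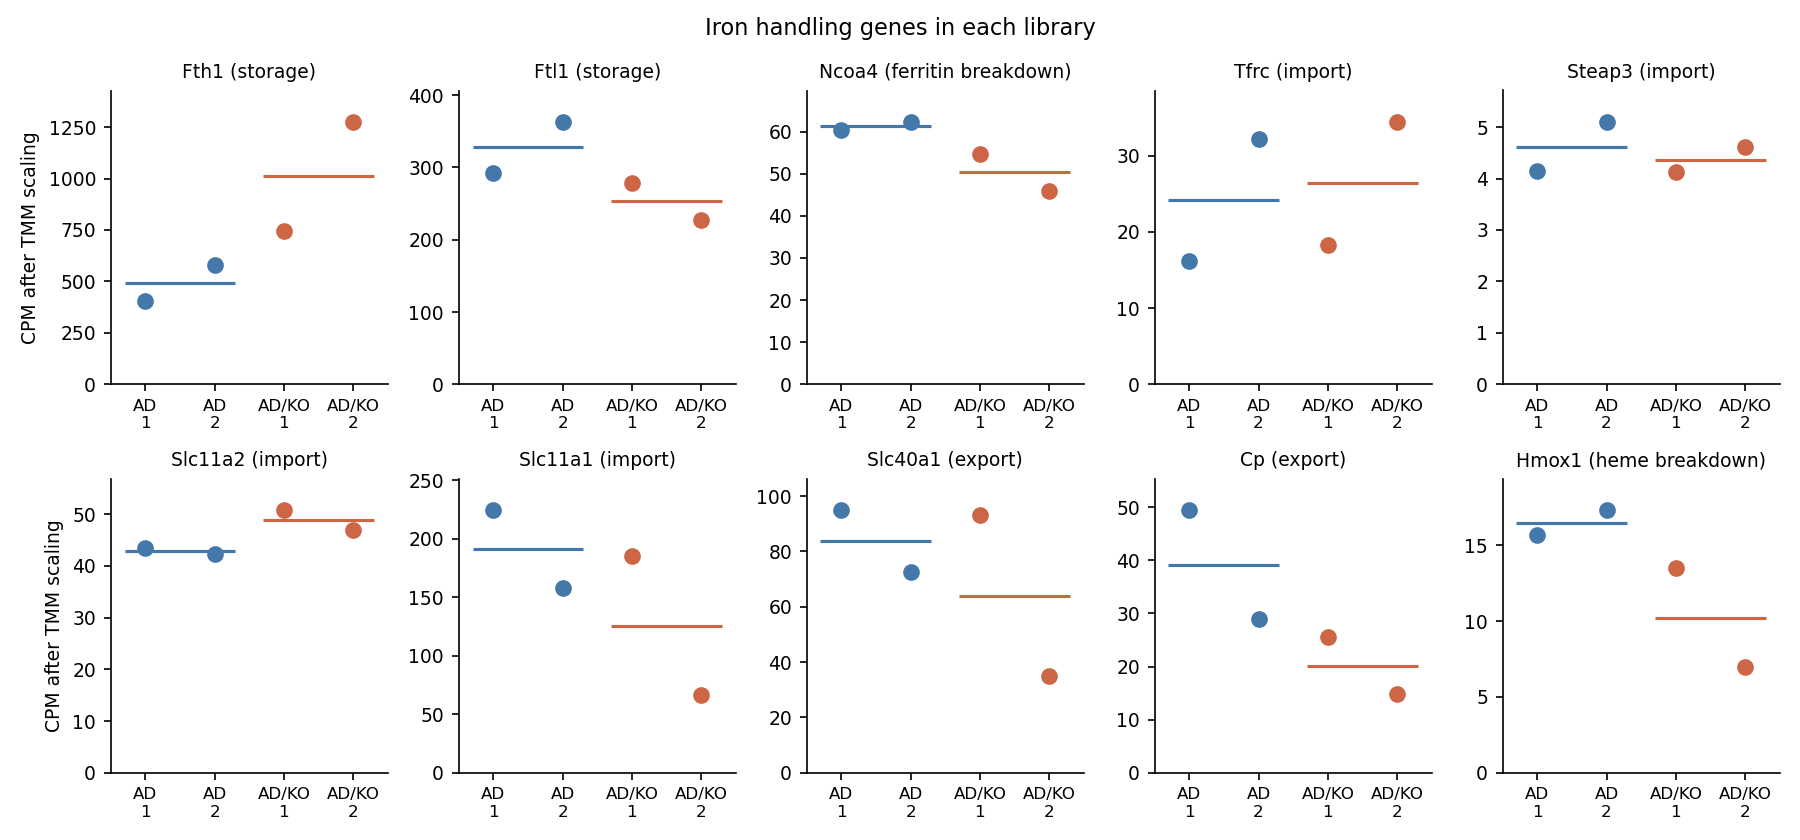
Level of each of the 10 genes in each library, in CPM after TMM scaling on a linear axis from 0. Points are libraries (AD blue, AD/KO orange, replicate number beneath) and lines are group means. Fth1 runs from 407 CPM in AD replicate 1 to 1275 CPM in AD/KO replicate 2, whereas Ftl1 is lowest in AD/KO replicate 2 at 227 CPM.

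The heavy and light chains of ferritin lay on opposite sides of 0. Fth1 (gene ID 14319, chromosome 19, 9980600 to 9985111) was at 407 and 581 CPM in AD and at 746 and 1275 CPM in AD/KO. Both AD/KO libraries lay above both AD libraries, with AD/KO replicate 2 the highest. Its mean was 494 ± 123 CPM (SD, n = 2) in AD. In AD/KO it was 1010 ± 374 CPM (SD, n = 2), which the fit gave as 1.03 on the log2 scale (SE 0.53), or 0.59 without AD/KO replicate 2. Ftl1 (gene ID 14325, chromosome 7, 45457944 to 45459886) went the other way, with 293 and 363 CPM in AD and 279 and 227 CPM in AD/KO. The groups did not overlap, but AD/KO replicate 1 and AD replicate 1 were close. Its log2 fold change was −0.38 (SE 0.36), and −0.15 without AD replicate 2 or −0.24 without AD/KO replicate 2.

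The proportion of the chains does not depend on how libraries are scaled. Per kilobase of the longest coding transcript (1494 bases for Fth1 and 968 for Ftl1), the ratio of Fth1 to Ftl1 was 0.899 and 1.04 in AD and 1.73 and 3.63 in AD/KO. The ratio was higher in both AD/KO libraries than in both AD libraries. The mean ratio was 0.968 ± 0.0981 (SD, n = 2) in AD and 2.68 ± 1.34 (SD, n = 2) in AD/KO, 2.77 times as high, and 1.79 times as high without AD/KO replicate 2. The ratio itself depends on the lengths assumed, while the factor between groups does not. With all annotated exon bases as the length it was 0.536 and 0.619 in AD and 1.03 and 2.17 in AD/KO. Fth1 and Ftl1 counts together made up 0.0737% and 0.0965% of the library in AD and 0.102% and 0.140% in AD/KO.

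The astrocyte, neuron and oligodendrocyte marker sums were, like Fth1, highest in AD/KO replicate 2 and lowest in AD replicate 1. Over all libraries the astrocyte and oligodendrocyte sums ran in the order of Fth1. The neuron sum did not, being higher in AD replicate 2 than in AD/KO replicate 1. The astrocyte list summed to 2126 and 5088 CPM in AD and 5448 and 13754 CPM in AD/KO, with all 10 of 10 markers above 0 in fitted fold change. The neuron list summed to 381 and 1270 CPM in AD and 957 and 3016 CPM in AD/KO (12 of 12 above 0), and the oligodendrocyte list to 1648 and 2648 CPM and 3927 and 8566 CPM (6 of 9 above 0). No marker of these 3 lists was at 0 in any library. Within the oligodendrocyte list, Mbp, a myelin protein gene, was at 910 and 1324 CPM in AD and 2504 and 5620 CPM in AD/KO, whereas Mog, another, was at 12.8 and 35.6 CPM and at 18.4 and 17.8 CPM. The part of these cells in the Fth1 difference was not tested.

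**Figure D2:**
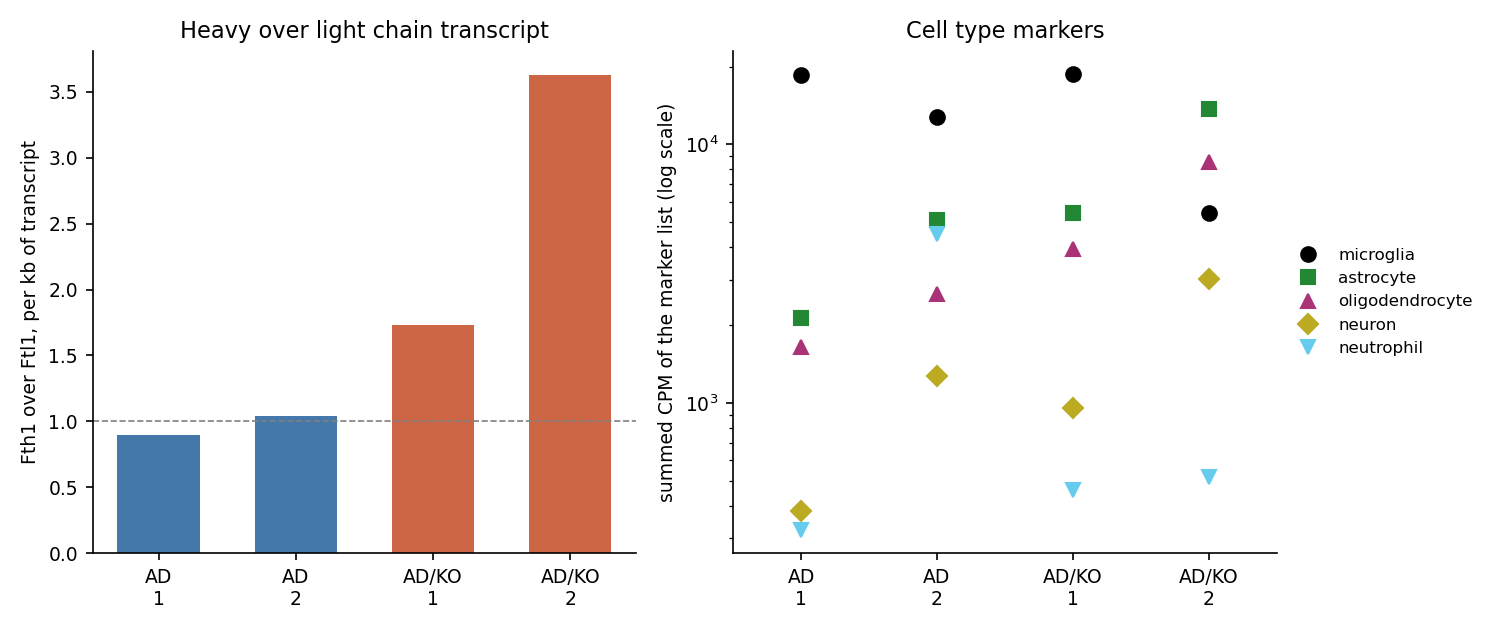
Left, ratio of Fth1 to Ftl1 per kilobase of the longest coding transcript in each library, as bars from 0 with a dashed line at 1 (AD blue, AD/KO orange); the ratio is 0.899 and 1.04 in AD and 1.73 and 3.63 in AD/KO. Right, summed CPM of 5 marker lists in the same libraries on a log axis; astrocyte, oligodendrocyte and neuron sums are highest, and the microglia sum lowest, in AD/KO replicate 2.

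Ferritin copies could affect these counts. Sequence copies at 95% identity or more over at least 100 bases were found for Ftl1 and Ncoa4 among the 10 genes. The 7 Ftl1 copies in the tables held at most 4.29% as many counts as Ftl1 in any library, the best covered being Gm15590 with 175 counts over the 4 libraries. The longest match, Ftl1-ps1, was 99.6% identical over 910 bases. How reads that match both Ftl1 and a copy were counted is not given in the sources used here. The Ftl1 level, and with it the ratio of Fth1 to Ftl1, is thus uncertain by an amount that these counts do not bound. With only the copies named Fth or Ftl added to their parent genes, the log2 fold changes were 1.03 for Fth1 and −0.35 for Ftl1. Gm15590 and Gm12164 were not among the copies added. Among copies named for ferritin, Fth-ps2 had 36, 48, 29 and 33 counts and Ftl1-ps1 had 11, 26, 33 and 14, in the order AD replicates 1 and 2, AD/KO replicates 1 and 2. Ftl2-ps (chromosome 4, 125504080 to 125505018), at 98.7% identity to Ftl1 over 552 bases, had 1 and 11 counts in AD and 33 and 92 in AD/KO. It lies inside an intron of Grik3, a glutamate receptor gene on the same strand, which had 119 and 388 counts in AD and 666 and 1840 in AD/KO. The Ftl2-ps counts thus ran in the same order as those of its host gene, unlike those of Ftl1 itself. Ftl1 also shares 26.5% of its exon bases with Gm10252 on the other strand, and the use of strand in counting is not given in the sources used here.

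Ncoa4, the receptor that hands ferritin to the lysosome so that its iron is released, varied little on the TMM scale. It was at 60.4 and 62.3 CPM in AD and 54.8 and 46.0 CPM in AD/KO. The libraries of the AD group differed by 1.03-fold, and both AD/KO libraries lay below them. The log2 fold change was −0.28 (SE 0.27), and −0.16 without AD/KO replicate 2. Relative to the microglia markers described below, Ncoa4 varied more, from 37.6 to 111 scaled CPM. A pseudogene, Ncoa4-ps, matches it at 99.9% over 1878 bases and took 107 to 173 counts a library, at most 16.4% of the Ncoa4 count. How reads that match both were counted is not given in the sources used here, so the Ncoa4 level is uncertain by an amount these counts do not bound.

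Of the import genes, Tfrc differed by replicate number more than by group. Tfrc (gene ID 22042, chromosome 16, 32608896 to 32632794), the transferrin receptor, was at 16.2 and 32.2 CPM in AD and 18.3 and 34.4 CPM in AD/KO. Replicate 2 was high and replicate 1 low in both groups, and the groups overlapped. The log2 fold change was 0.12 (SE 0.51), and its direction changed with the libraries used. It was −0.40 when AD/KO replicate 2 was left out, −0.29 when AD replicate 1 was, 0.58 when AD/KO replicate 1 was and 0.77 when AD replicate 2 was. Red cell precursors also depend on Tfrc. The erythroid list (7 of 7 detected, 0 markers at 0 in any library) summed to 878 and 1768 CPM in AD and 440 and 2003 CPM in AD/KO. It too was higher in replicate 2 of each group, as were the neuron, astrocyte and oligodendrocyte sums. Unlike Tfrc, the erythroid sum was lowest in AD/KO replicate 1. The endothelial and mural list summed to 44.6 and 66.7 CPM in AD and 53.4 and 96.5 CPM in AD/KO. Over all libraries this sum and the neuron sum ran in the order of Tfrc. The part of any of these cell types in the Tfrc level was not tested.

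Steap3 and Slc11a2, which act after Tfrc in the endosome, varied by 1.24-fold and 1.20-fold from the lowest to the highest library on the TMM scale, the smallest ranges of the 10 genes on that scale. Relative to the microglia markers described below they were not the steadiest: Steap3 ran from 2.75 to 11.1 and Slc11a2 from 28.8 to 113 scaled CPM. Steap3, the endosomal iron reductase, was at 4.14 and 5.10 CPM in AD and 4.12 and 4.61 CPM in AD/KO. Its groups overlapped, with a log2 fold change of −0.08 (SE 0.46) that turned to 0.14 without AD replicate 2 and 0.07 without AD/KO replicate 1. Slc11a2 (DMT1), the endosomal and plasma membrane iron transporter, was at 43.4 and 42.2 CPM in AD and 50.7 and 46.9 CPM in AD/KO. Both AD/KO libraries lay above both AD libraries by a small margin, with a log2 fold change of 0.19 (SE 0.26). Leaving out each library in turn gave 0.20 to 0.25.

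Slc11a1 (NRAMP1), the transporter that moves iron and other metals out of the phagosome of macrophages, was lowest in AD/KO replicate 2. It was at 224 and 158 CPM in AD and 185 and 66.1 CPM in AD/KO. AD/KO replicate 1 lay between the AD libraries, so the groups overlapped. The log2 fold change was −0.61 (SE 0.57). It came to −0.05 when AD/KO replicate 2 was left out, to −1.46 when AD/KO replicate 1 was and to −0.33 when AD replicate 1 was. The difference was thus smallest without AD/KO replicate 2, the library with the least microglial signal. The part of that signal in the Slc11a1 level was not tested. Within the pair of related transporters, Slc11a1 had 5.16 and 3.74 counts for each count of Slc11a2 in AD and 3.64 and 1.41 in AD/KO.

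Of the export genes, Slc40a1 followed the pattern of Slc11a1. Slc40a1 (gene ID 53945, chromosome 1, 45908070 to 45926532), the only iron exporter known in mammals, was at 94.8 and 72.5 CPM in AD and 93.1 and 34.9 CPM in AD/KO. Only AD/KO replicate 2 was low, and the groups overlapped. The log2 fold change of −0.39 (SE 0.53) turned to 0.15 when AD/KO replicate 2 was left out. It was −1.19 when AD/KO replicate 1 was left out and −0.18 when AD replicate 1 was. Border-associated macrophages, which also express the exporter, had marker sums of 137 and 101 CPM in AD and 70.2 and 60.8 CPM in AD/KO (7 of 8 markers below 0 in fitted fold change, 0 markers at 0 in any library). Their part in the Slc40a1 level was not tested.

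Cp (gene ID 12870, chromosome 3, 19956933 to 20009750), ceruloplasmin, the copper ferroxidase that works with the exporter, had its lowest values in the AD/KO group. It was at 49.4 and 28.9 CPM in AD and 25.6 and 14.8 CPM in AD/KO. The higher AD/KO library was close to the lower AD library. The log2 fold change was −0.95 (SE 0.45), and −0.52 without AD replicate 1 or −0.61 without AD/KO replicate 2. The gene shares 108 exon bases (1.13% of its exons) with Hps3 on the other strand, a lysosome-related organelle gene with 2916 and 2007 counts in AD and 2641 and 970 in AD/KO. Cp counts were 23.3% and 23.4% of the Hps3 counts in AD and 18.6% and 28.0% in AD/KO. The ratio did not separate the groups, and without knowledge of strand the reads of the shared stretch cannot be told apart.

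Hmox1 (gene ID 15368, chromosome 8, 75093618 to 75100593), heme oxygenase, which frees iron from heme, was at 15.7 and 17.3 CPM in AD and 13.5 and 6.95 CPM in AD/KO. Both AD/KO libraries were below both AD libraries, and AD/KO replicate 2 was by far the lower. The log2 fold change of −0.69 (SE 0.45) was −1.18 when AD/KO replicate 1 was left out and −0.29 when AD/KO replicate 2 was. Marker sums of other macrophage-lineage cells were also lower in both AD/KO libraries. The monocyte list summed to 85.1 and 414 CPM in AD and 48.8 and 72.4 CPM in AD/KO (5 of 5 markers below 0 in fitted fold change, 0 at 0 in any library), and the border-associated macrophage sums are those given for Slc40a1. Their part in the Hmox1 level was not tested.

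**Figure D3:**
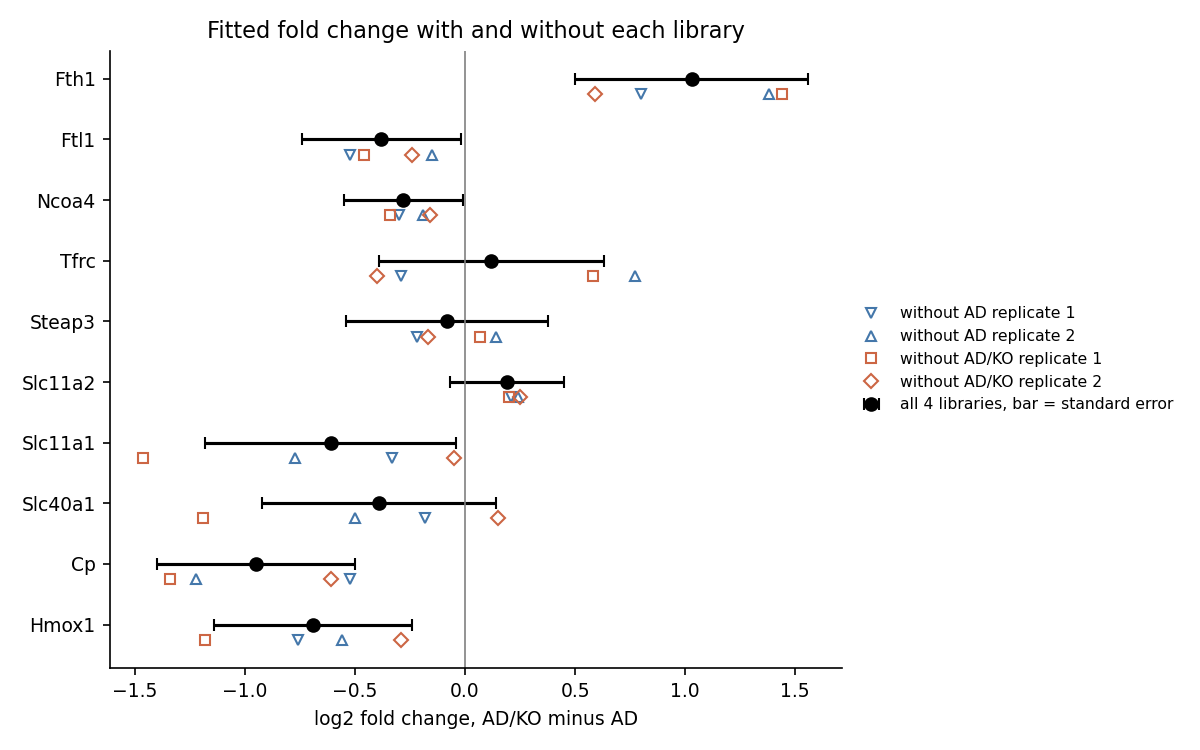
Fitted log2 fold change, AD/KO minus AD, of the 10 genes. Black points with bars are the fit on all 4 libraries with its standard error, and open symbols beneath are fits that leave out 1 library. Fth1 stays above 0 (0.59 to 1.44) and Cp below 0 (−1.34 to −0.52), while Tfrc spans −0.40 to 0.77 and Slc40a1 −1.19 to 0.15.

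The order of the levels was examined per kilobase of the longest coding transcript. In AD, Ftl1 (339 ± 50.8 CPM per kb, SD, n = 2) and Fth1 (331 ± 82.5 CPM per kb, SD, n = 2) were highest and overlapped, followed by Slc11a1 (82.5 ± 20.2 CPM per kb, SD, n = 2) and Slc40a1 (24.8 ± 4.67 CPM per kb, SD, n = 2). Ncoa4, Hmox1, Slc11a2, Cp and Tfrc followed at mean levels of 15.1, 10.5, 9.69, 8.57 and 4.95 CPM per kb, of which Slc11a2 and Cp overlapped, as did Cp and Tfrc, and Steap3 was last at 0.896 ± 0.132 CPM per kb (SD, n = 2). The ferritin chains thus stood above every transporter in level per length. In AD/KO, Fth1 (676 ± 250.0 CPM per kb, SD, n = 2) stood above Ftl1 (261 ± 37.4 CPM per kb, SD, n = 2) with no overlap, Slc11a1 and Slc40a1 again followed in mean level, and Steap3 was again last. With all annotated exon bases as the length, Ftl1 stood above Fth1 in AD with no overlap, and Fth1 remained above Ftl1 in AD/KO.

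Since the microglial signal differed between libraries, the levels were also expressed relative to the 12 microglia markers, a scale that moved the median over all genes tested to 0.88 (log2). On that scale the genes differed in spread. Slc11a1 was at 149 and 144 scaled CPM in AD and 127 and 159 in AD/KO, and Slc40a1 at 62.9 and 66.1 in AD and 63.9 and 84.1 in AD/KO. Hmox1 was at 10.5 and 15.8 in AD and 9.26 and 16.8 in AD/KO. These genes varied less between libraries than Fth1, which was at 270 and 529 scaled CPM in AD and 512 and 3075 in AD/KO, or Tfrc, at 10.7 and 29.3 in AD and 12.6 and 83.0 in AD/KO. Cp, Ftl1, Ncoa4, Slc11a2 and Steap3 lay between these in fold from the lowest to the highest library. The groups overlapped on this scale in all 10 genes. The fitted log2 fold change of Fth1 was 2.16 (SE 1.16), or 1.28 above the median of all genes, and that of Slc11a1 was −0.03 (SE 1.10), or 0.92 below it. The direction turned from negative to positive for Ftl1 (0.49), Slc40a1 (0.20), Ncoa4 (0.62) and Steap3 (0.91), of which Ftl1, Slc40a1 and Ncoa4 stayed below the median of all genes and Steap3 lay 0.02 above it.

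**Figure D4:**
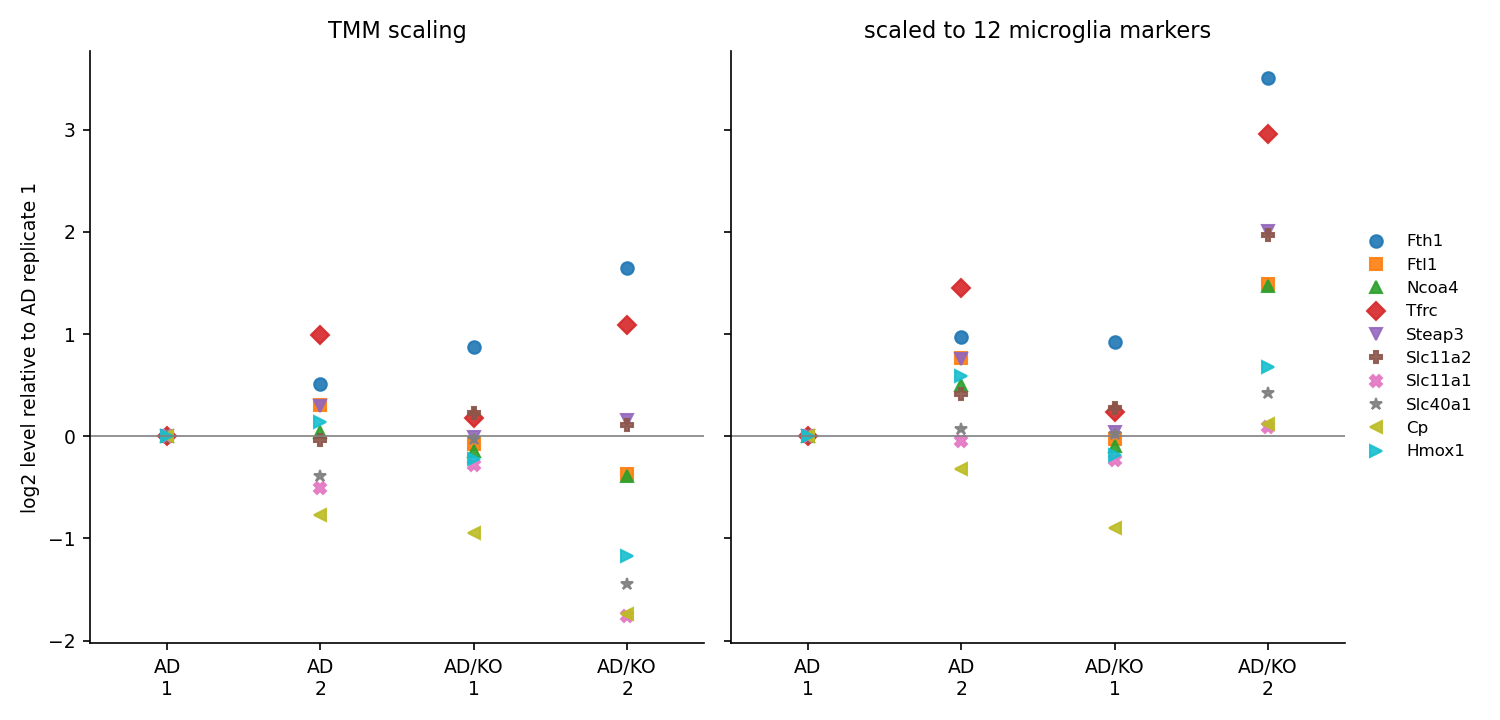
Log2 level of the 10 genes in each library relative to AD replicate 1, after TMM scaling (left) and after scaling to 12 microglia markers (right). On the left AD/KO replicate 2 spreads the genes to both sides of 0; on the right Slc11a1 stays near 0 in every library (127 to 159 scaled CPM), and Fth1 and Tfrc are farthest above 0 in AD/KO replicate 2.

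To place the 10 genes in the wider pathway, 54 other iron genes listed by role were examined. Of these, 46 were tested, and 0 passed in either direction (edgeR, adjusted over all genes), with 2 of them, Steap4 and Heph, at an unadjusted p under 0.05. There were 21 with a fold change above 0 and 25 below 0, with a median log2 fold change of −0.04, against −0.05 over all genes. Both AD/KO libraries lay above both AD libraries in 9 of the 46 and below them in 8, against 20.3% and 21.7% of all genes. Tf, the gene of transferrin, was not analysed here, and 7 others were too low to be tested.

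No iron sensor and no regulator of ferritin and heme oxygenase passed edgeR's test fitted without a replicate block. Ireb2, the sensor that binds the hairpins shown above, was at 106 and 81.6 CPM in AD and 72.8 and 52.3 CPM in AD/KO, with a fitted log2 difference of −0.58 (SE 0.33, adjusted p = 0.68 by edgeR). The groups did not overlap, and the difference was −0.36 when AD/KO replicate 2 was left out and −0.38 when AD replicate 1 was. Aco1, the other sensor, was at 45.1 and 39.8 CPM in AD and 44.0 and 47.6 CPM in AD/KO, with a log2 fold change of 0.11 (SE 0.27). Nfe2l2 (NRF2), an activator of Hmox1 and the ferritin genes, was at 156 and 109 CPM in AD and 122 and 54.5 CPM in AD/KO. Bach1, a repressor of the same genes, was at 206 and 132 CPM in AD and 160 and 69.7 CPM in AD/KO. Both were lowest in AD/KO replicate 2, as Slc11a1 and Slc40a1 were, and their log2 fold changes of −0.59 and −0.56 were −0.12 and −0.08 without that library. They were −0.31 and −0.20 without AD replicate 1, and −1.21 for each when AD/KO replicate 1 was left out. Hmox2, the constitutive heme oxygenase, had 44.5 and 38.3 CPM in AD and 41.8 and 29.0 CPM in AD/KO, with overlapping groups. Leaving out AD/KO replicate 2 turned its log2 fold change from −0.23 to 0.01, and leaving out AD/KO replicate 1 or AD replicate 1 gave −0.44 or −0.11.

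The 3 other iron genes above 0 with the lowest unadjusted p were import and export genes, while the median of the 11 import genes tested was 0.00092 on the log2 scale. Heph (hephaestin, a ferroxidase related to ceruloplasmin) was at 2.25 and 4.43 CPM in AD and 7.09 and 18.2 CPM in AD/KO, with a fitted log2 difference of 1.92 (SE 0.67, adjusted p = 0.68 by edgeR). Its groups did not overlap, and the difference was 1.08 without AD/KO replicate 2. Tfr2, a second transferrin receptor, was at 0.435 and 2.34 CPM in AD and 3.91 and 9.61 CPM in AD/KO, with a fitted log2 difference of 2.27 that was 1.48 when AD/KO replicate 2 was left out, 1.53 when AD replicate 1 was and 4.0 when AD replicate 2 was. Slc22a17, a receptor for the iron-binding lipocalin, was at 97.9 and 164 CPM in AD and 173 and 367 CPM in AD/KO, and its fitted log2 difference of 1.04 was 0.40 without AD/KO replicate 2 and 1.56 without AD/KO replicate 1. Heph, Tfr2 and Slc22a17 were each highest in AD/KO replicate 2, the library with the highest neuron, astrocyte and oligodendrocyte sums, and the part of those cells was not tested.

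On the lower side, Steap4, an iron and copper reductase, was at 1.09 and 8.48 CPM in AD and 0.209 and 0.271 CPM in AD/KO, with a fitted log2 difference of −4.28 (SE 1.21, adjusted p = 0.68 by edgeR), and −2.08 without AD replicate 2. Steap4 had 15 and 138 counts in AD and 4 and 5 in AD/KO, so it passed the filter on low counts only through the AD libraries. DESeq2 called it (adjusted p = 0.0248), as it did 0.435% of the genes it tested. Since Steap4 was named for a low unadjusted p in this same contrast, nothing further is read from that call. The edgeR log2 fold change was −5.11 when AD replicate 1 was left out. Lcn2, the lipocalin that binds iron-loaded siderophores and is stored in neutrophil granules, was at 27.1 and 386 CPM in AD and 42.2 and 41.8 CPM in AD/KO. Its log2 fold change of −2.30 turned to 0.70 without AD replicate 2 and was −3.20 without AD replicate 1. AD replicate 2 was the library with the neutrophil sum of 4488 CPM (9 of 9 markers detected), and the part of neutrophils was not tested for either gene.

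**Figure D5:**
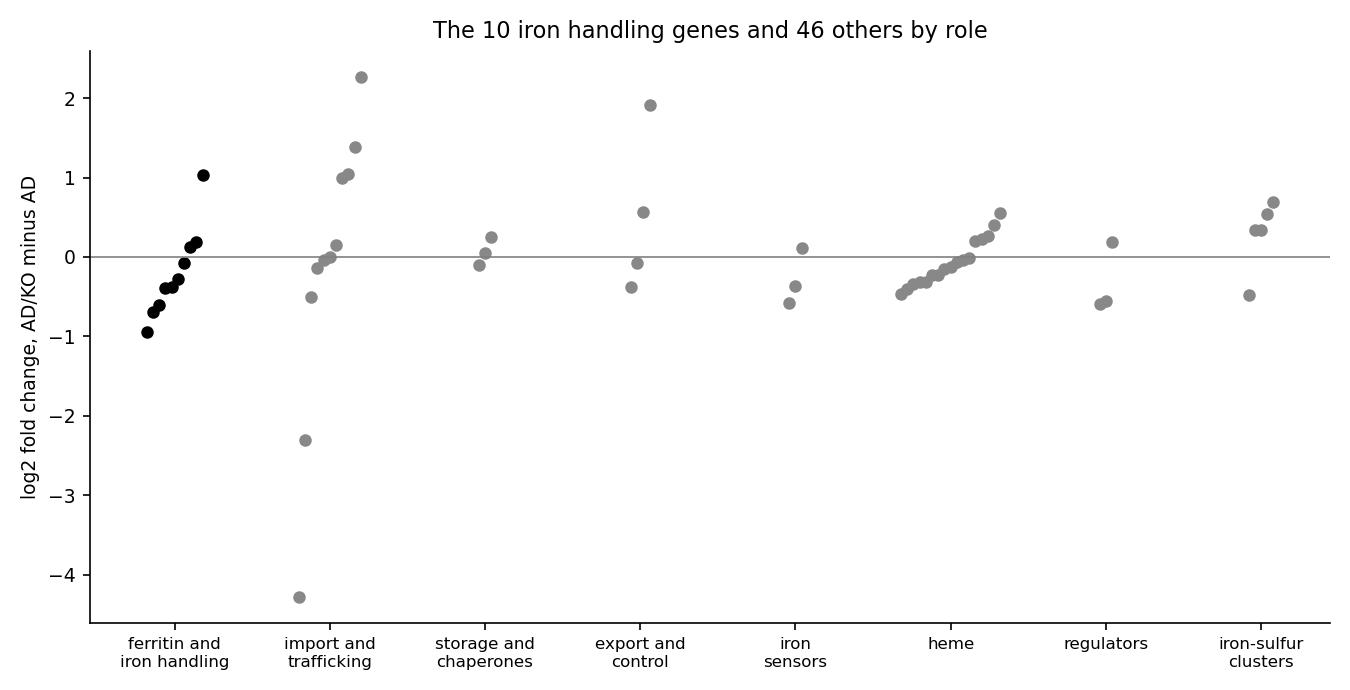
Fitted log2 fold change, AD/KO minus AD, of the 10 iron handling genes (black) and of 46 other iron genes (grey) grouped by role. Each point is a gene, sorted within its group; the 10 genes range from −0.95 (Cp) to 1.03 (Fth1), and the widest spread is among the import genes, from −4.28 (Steap4) to 2.27 (Tfr2).

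The genes whose profile over the 4 libraries was most like that of each ferritin chain were found by the root mean square distance between centred log2 levels, among 8517 other genes with a mean of at least 20 CPM. For Fth1 they included Ano8 (distance 0.02) and R3hdm1 (0.027). Ano8 was at 45.5 and 64.0 CPM in AD and 84.9 and 145 CPM in AD/KO. For Ftl1 they were Tbp (0.03), Zyx (0.037) and Galns (0.039). Zyx, a focal adhesion protein, was at 117 and 136 CPM in AD and 105 and 87.7 CPM in AD/KO. These distances rest on 4 libraries and are a description.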

How the data were processed

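For each library the authors deposited raw read counts, as whole numbers beside gene symbols. Per the labels' protocols, TRIzol extraction and removal of ribosomal RNA came before a stranded library kit. Per the submitters' processing notes, FastQC, HISAT2, SAMtools, featureCounts, Subread and DESeq2 1.30.0 were used with mm10; the annotation, strand setting and handling of multiply matching reads are not given in the sources used here. Broken lines (11 per table) held no count for 4 genes.

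Here, counts were tested with edgeR 4.0.16 (R 4.3.3; filterByExpr with a minimum count of 10 and total of 15, TMM, quasi-likelihood F-test, no covariates, Benjamini-Hochberg over all genes, threshold 0.05), and checked on simulated data. The standard error is the log2 fold change divided by the square root of F. Alternatives were DESeq2 1.42.0, its size factors, scaling to microglia markers, other filters, a replicate block, each library left out, and ferritin copies added; the ferritin ratio without each library and over all exon bases was added after seeing the data. Coordinates are from RefSeq (GRCm38.p6), where 49993 of 49993 symbols matched, and lengths and sequences from GENCODE M21 (GRCm38). Copies were found with BLAST 2.17.0.

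The 10 genes, the gene lists and the alternatives were chosen with earlier results of these data known. Named by rule were the 10 genes, Ociad1, the 3 other iron genes lowest in unadjusted p on either side of 0, 6 by role (Aco1, Ireb2, Tf, Hmox2, Nfe2l2 and Bach1), the 3 ferritin copies with most counts and the 3 genes most like each ferritin chain; 2 genes that this rule names are not reported here. Marker genes, Grik3, Hps3, Ncoa4-ps and Gm15590 were named after their values were seen. Columns that matched no sample numbered 0.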

Additional observations from a re-analysis of the deposited data

How the results depend on the processing

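The count of genes past the threshold, 0 by edgeR's quasi-likelihood test, was 86 with DESeq2 (37 higher and 49 lower) and ran from 0 to 724 in fits that each left out 1 library, with the lone library of a group assumed to vary like the other group; it was 724 without AD replicate 2 and 49 without AD replicate 1. It stayed 0 with DESeq2 size factors, the microglia scaling, no filter on low counts and a filter at a mean of 1 CPM. The replicate numbers are shared by the groups, but nothing says that they pair the libraries; same-numbered libraries deviated together across genes (correlation 0.68 over 2 pairs), and a fit with the replicate block called 4333 (2878 higher and 1455 lower), at fold changes of the 10 genes that stayed within 1 standard error of those reported, in the same direction. Of the other iron genes named, Heph, Tfr2, Slc22a17, Steap4 and Ireb2 passed with the block, where 20.2% of all genes tested did. Lcn2, Aco1, Hmox2, Nfe2l2 and Bach1 did not pass. Heph, Tfr2, Slc22a17 and Steap4 had been named for a low unadjusted p in the same contrast, so nothing is read from these passes.

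Of 102 values of the 10 genes under alternatives, 83 kept their direction and lay within 1 standard error, 10 moved further and 9 changed direction. Scaling to the microglia list gave 2.16 (Fth1), 1.25 (Tfrc), 1.14 (Slc11a2), −0.015 (Hmox1), −0.032 (Slc11a1) and −0.15 (Cp), and turned Ftl1 to 0.49, Slc40a1 to 0.20, Ncoa4 to 0.62, Steap3 to 0.91, Ireb2 to 0.28, Hmox2 to 0.61, Nfe2l2 to 0.082, Bach1 to 0.11, the median of the 10 genes to 0.56 and that of the other iron genes to 0.89, with the median of all genes at 0.88. The median of the other iron genes (−0.039) also crossed 0 with DESeq2 (0.0015) and its size factors (0.0014).

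With each library left out in turn, log2 fold changes ran from 0.59 to 1.44 (Fth1), −0.52 to −0.15 (Ftl1), −1.19 to 0.15 (Slc40a1), −0.40 to 0.77 (Tfrc), −1.18 to −0.29 (Hmox1), −1.46 to −0.049 (Slc11a1), 0.20 to 0.25 (Slc11a2), −0.34 to −0.16 (Ncoa4), −1.34 to −0.52 (Cp), −0.22 to 0.14 (Steap3), −3.20 to 0.70 (Lcn2) and −0.44 to 0.013 (Hmox2). The factor between groups in the Fth1 to Ftl1 ratio (2.77) ran from 1.79 to 3.75. The medians ran from −0.40 to −0.16 (the 10 genes) and −0.088 to 0.094 (other iron genes). The cause of these shifts was not tested beyond the library left out. Steap3, the least abundant of the 10 genes, had 57 to 85 counts a library, and Steap4 and Tfr2 also rest on few counts. Whether depth limited these values was not tested.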
